A study of Homo sapiens with 18 samples.

Results

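The cytosolic ribosomal protein genes encode the proteins of the small and the large subunit of the ribosome. They were taken from the gene table by symbol: RPL or RPS, with or without a P, followed by a number and an optional A, X or L, together with RPSA. The rule found 81 of the 62754 genes listed, and no measured value entered it. RNA was sequenced from EA.hy926, an endothelial line made by fusing human umbilical vein endothelial cells with A549 lung carcinoma cells. There were 18 libraries in 6 conditions of 3. Mock cells had received transfection reagent alone, siNT cells 10 nM of a non-targeting siRNA, and siELMO1 cells 10 nM of a pool of siRNAs against ELMO1, a regulator of the cytoskeleton and of engulfment. Each was sampled after serum starvation, before stimulation (0 h, which was 48 h after transfection) and after 24 h of 1 µg/ml poly(I:C), a double-stranded RNA mimic that acts on TLR3. All cells were of 1 line, all had met the transfection reagent, and the siELMO1 pool was the only one used against ELMO1. The study calls the libraries of a condition biological replicates of this line, and whether they were separate wells or separate experiments is not given in the sources used here. The p-values therefore measure the spread between these libraries.

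A ribosome holds a single copy of most of these proteins, and growing cells make them in matched amounts. Their mRNAs are short, very abundant and begin with a 5′ terminal oligopyrimidine (TOP) tract, a C followed by other pyrimidines, through which mTOR signalling and LARP1 set their translation and stability. Double-stranded RNA is known to depress protein synthesis in cells that sense it. Members described below by their role sit at the mRNA channel and decoding centre (RPS2, RPS3, RPS3A, RPS15, RPS16, RPS26), bind the small ribosomal RNA of the large subunit and, when free, the p53 regulator MDM2 (RPL5, RPL11), line the peptide tunnel (RPL39 and its paralog RPL39L), or form the stalk that recruits translation factors (RPLP0, RPLP1, RPLP2).

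Libraries held 40374756 to 73850946 estimated counts. ELMO1 had 10 to 22 counts in the 6 siELMO1 libraries and 80 to 237 in the 12 others. Endothelial CDH5, TIE1 and ENG were among the 11 of 12 endothelial markers expressed, and CLDN5 stayed under 1 CPM, the unit of counts scaled to library size with TMM factors. Of the lung epithelial markers, KRT8 and KRT18 were expressed, and CDH1, NKX2-1 and SFTPC had 0 CPM in every group on average. The summed endothelial markers ran from 3090 to 3310 CPM in siELMO1 at 0 h against 2190 to 2420 CPM in Mock and siNT at 0 h. Single markers did not all follow the sum. In siELMO1 against siNT at 0 h CDH5, TIE1, ENG, ERG, VWF, KDR, ROBO4, TEK and ESAM were higher. EGFL7 was lower and PECAM1 did not pass the test. The lung epithelial markers ran from 976 to 1090 CPM against 765 to 817 CPM, and 5 markers of other cells from 17.2 to 19 CPM against 5.11 to 10.1 CPM. Of these 5 only ACTA2 had enough counts to be tested. Its log2 fold change in siELMO1 at 0 h was 1.935 against siNT and 0.98 against Mock. The part of these markers in the results below was not tested. At 0 h siELMO1 replicate 1 differed from siELMO1 replicates 2 and 3. It had 1.86% of its counts in mitochondrially encoded genes and replicates 2 and 3 had 4.03% and 3.95%, where the Mock and siNT libraries at 0 h had 1.31% to 2.13%. Replicates 2 and 3 were thus the ones outside that range. They also had the lowest total counts of the series, 40374756 and 50984532. Some results that rest on replicate 1 are given with and without it. Replicates 2 and 3 were left out singly and never together.

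The start of the mRNA is what these genes have in common beyond their names. RefSeq promoter sequences (GRCh38) were at hand for 64 of the 81 members, with 79 annotated starts. At 46 of these starts (58.2%) the annotated first base was a C followed by at least 4 pyrimidines, against 4.07% of all 35116 starts in the table. Within 10 bases of the start such a tract was found at 81% of the members' starts and 33.5% of all. The members the results turn on are shown here as 30 bases around an annotated start, 15 on each side, with the pyrimidine tract in capitals. The windows are on GRCh38 at chr19:39435935-39435964 (minus strand) for RPS16, chr1:23691791-23691820 for RPL11, chr4:151099613-151099642 for RPS3A, chr10:78033848-78033877 for RPS24, chr1:153990747-153990776 for RPS27, chr12:56041903-56041932 for RPS26, chr19:55385917-55385946 for RPL28 and chr9:127451392-127451421 (minus strand) for RPL12. Each holds promoter and the first bases of the first exon.
RPS16: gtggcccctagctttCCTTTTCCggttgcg
RPL11: cggaagctccgctttCTCTTCCTgctctcc
RPS3A: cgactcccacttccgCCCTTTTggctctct
RPS24: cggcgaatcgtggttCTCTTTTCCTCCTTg
RPS27: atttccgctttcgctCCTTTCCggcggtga
RPS26: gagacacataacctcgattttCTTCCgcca
RPL28: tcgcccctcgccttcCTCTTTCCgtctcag
RPL12: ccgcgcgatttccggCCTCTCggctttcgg
At the starts shown, RPS16, RPL11, RPS3A, RPS24, RPS27, RPL28 and RPL12 began with the tract itself. In RPS26 the tract lay 6 bases downstream of the listed start. RPL11 had another listed start, not shown, with a tract 4 bases downstream of it. At the start shown, RPL11, which moved against most members below, thus had the same kind of sequence as RPS16. RPS16 moved furthest with most members among the abundant genes. The part of the start in these directions was not tested.

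In the 300-base window around the start, CCGGAA, the core that ETS factors such as GABPA bind, was present on either strand at 53.2% of the members' starts and 17.2% of all starts. ATGGCG, the core of the YY1 motif, was present at 35.4% and 10.7%. GGGCGG, an Sp1-type GC box, was present at 55.7% and 45.0%, and TATAAA at 7.59% and 11.5%. These are matches of letters and not sites shown to be bound. The 46 tested members with a C and pyrimidines at a listed start and the 17 tested without had median log2 fold changes of −0.35 and −0.33 in siELMO1 against siNT at 0 h and −0.24 and −0.27 at 24 h. These were 0.31 and 0.30 in siNT against Mock at 0 h, and −0.20 and −0.31 with poly(I:C) in siNT. Of the 64 members with a sequence, 57 had such a tract within 10 bases of a listed start. The class without thus holds members with a tract a few bases away, such as RPS26. The split therefore cannot compare members with and without a tract.

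Of the 81 members, 79 were tested. RPL3L and RPL10L, paralogs known from muscle and testis, had at most 14 and 4 counts in any library and did not pass the filter of 100 counts in total and 1 CPM in at least one library. Levels were compared between genes as TPM, computed from the transcript table by dividing each transcript's count by its length and scaling every library to the same total. The other 79 members had a median of 1400 TPM with quartiles of 941 and 1950 TPM, and 64 of them were among the 200 genes with the highest mean TPM. RPS2 was highest at 4318 TPM, and RPLP0, RPL13A and RPS3 followed at 3134, 2876 and 2693 TPM. RPS27L and RPL39L, the expressed paralogs of RPS27 and RPL39, were lowest at 121 and 29.7 TPM.

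The 81 genes together took a smaller part of each library after poly(I:C), and the largest part in siNT at 0 h. Their share of counts was 4.79%, 4.71% and 4.79% in Mock at 0 h, 5.38%, 5.67% and 5.43% in siNT at 0 h, and 4.80%, 4.26% and 4.22% in siELMO1 at 0 h. At 24 h it was 4.01%, 4.27% and 3.89% in Mock, 4.47%, 4.56% and 4.10% in siNT, and 3.68%, 3.72% and 3.48% in siELMO1. The siNT libraries at 0 h lay above all others, and the siELMO1 libraries at 24 h lay below all others. Scaled by length, the share of TPM ran from 9.47% to 13.8% with the same 2 conditions at the ends. In bulk RNA a lower level of a transcript per cell and a smaller number of cells that express it cannot be told apart.

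**Figure D1:**
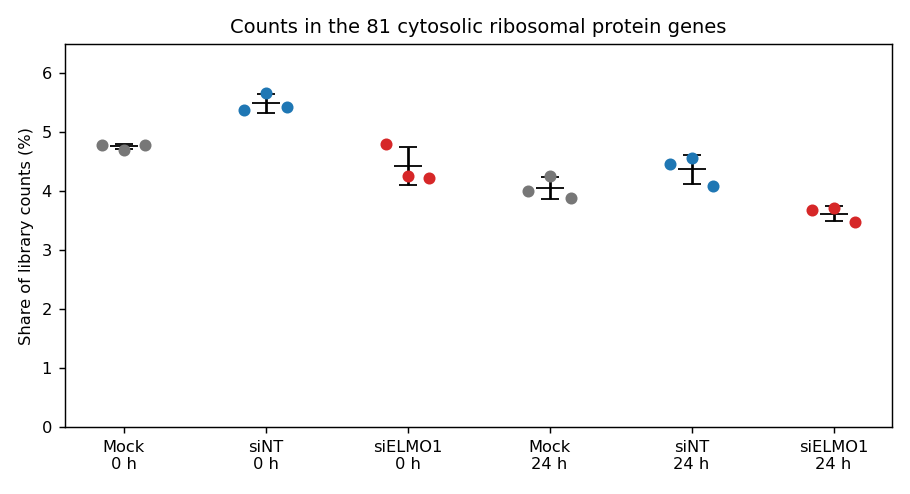
Share of each library's estimated counts (%, vertical axis) in the 81 cytosolic ribosomal protein genes, by condition (horizontal axis). Points are libraries and bars are the mean and SD of 3. The siNT libraries at 0 h sit between 5.38% and 5.67%, the siELMO1 libraries at 24 h between 3.48% and 3.72%.

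The cells given the non-targeting siRNA were compared with Mock. An effect of transfecting siRNA as such cannot be told apart here from one of the non-targeting siRNA used. At 0 h the members stood higher in siNT almost throughout. Of 79 tested members, 66 (83.5%) were called higher in siNT and 3 lower, where 27.6% of all 15167 genes tested were called higher and 24.0% lower. Scaled by library totals alone, the counts were 53 and 3. Here and below, the share of all genes was counted only with TMM factors and all 18 libraries. A call was an adjusted p under 0.05 in edgeR's quasi-likelihood test. The median log2 fold change of the members was 0.30, with quartiles of 0.21 and 0.33, against 0.03 for all genes tested. Both subunits moved alike, with medians of 0.30 for 32 small-subunit and 0.30 for 47 large-subunit members.

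RPS24, a small-subunit protein mutated in Diamond-Blackfan anaemia, stood at 589, 576 and 575 CPM in Mock and reached 813, 878 and 813 CPM in siNT at 0 h. These groups did not overlap, and the log2 fold change was 0.52 ± 0.06 (SE, n = 3 per group, edgeR adjusted p = 1e-06). The zinc-finger proteins RPS27 and RPL37A rose by 0.51 and 0.44 on the same scale. RPS19, also a Diamond-Blackfan gene, RPS3 at the mRNA entry and RPL23 rose by 0.33, 0.39 and 0.32. RPS27A, made as a fusion with ubiquitin, rose by 0.35, and RPSA, the laminin receptor precursor, by 0.20. RPS19 and RPSA did not pass the test when any Mock library at 0 h was left out (0.28 to 0.30 and 0.15 to 0.18).

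The 3 members lower in siNT at 0 h were RPL11, RPL39L and RPS26. RPL11 stood at 521, 504 and 521 CPM in Mock, and at 345, 360.2 and 348 CPM in siNT. All 3 siNT libraries lay below all 3 Mock libraries, with a log2 fold change of −0.55 ± 0.05 (edgeR adjusted p = 5.3e-08). RPL5, which enters the ribosome in the same particle as RPL11, went the other way, with a log2 fold change of 0.30. RPL39L and RPS26, a protein of the mRNA exit channel, were lower by log2 fold changes of −0.39 and −0.25.

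After poly(I:C) the difference between siNT and Mock was smaller. At 24 h 31 members (39.2%) were called higher in siNT, beside 25.2% of all genes, and 5 lower, beside 24.9%. The median was 0.13, against 0.00 for all genes. The count of higher members was 16 without Mock replicate 1 at 24 h and 42 without siNT replicate 3 at 24 h. RPS24 again had the largest rise, 0.44 ± 0.06 (edgeR adjusted p = 9.2e-06), followed by RPL23 at 0.39 and RPL27 at 0.35. RPL39L, RPL11, RPS2, RPSA and RPL12 were lower, by −0.37, −0.33, −0.29, −0.26 and −0.21. RPS26 had changed sides: the siNT libraries at 24 h, at 132, 139 and 122 CPM, lay above the 110, 111 and 107 CPM of Mock, a log2 fold change of 0.26.

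**Figure D2:**
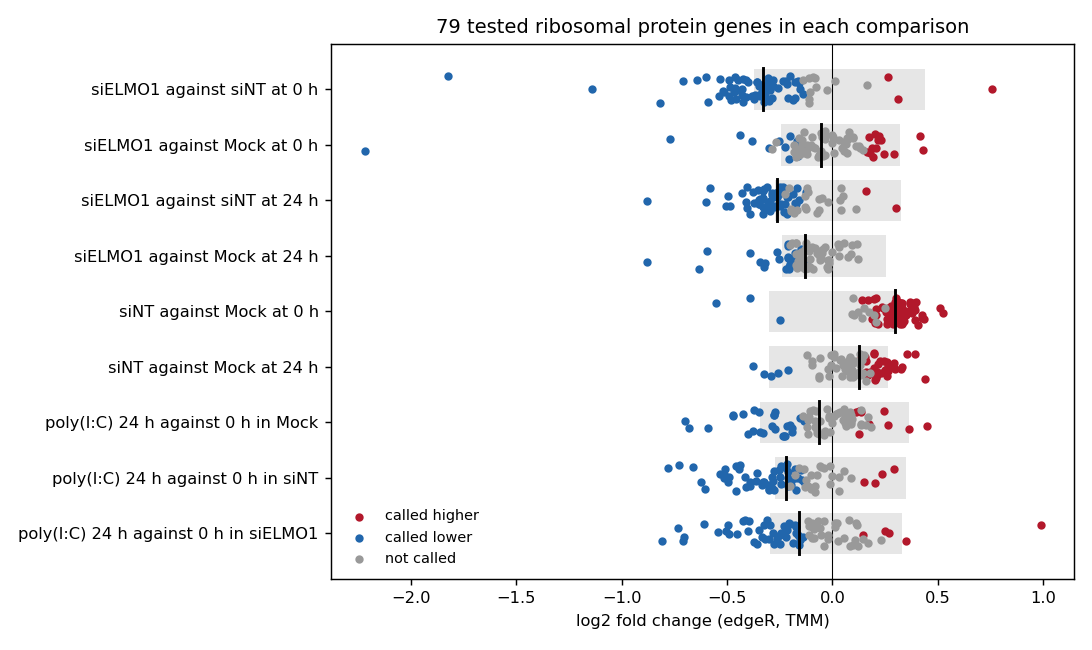
Log2 fold changes of the 79 tested members (horizontal axis) in the 9 pairwise comparisons (vertical axis), coloured by their call at an adjusted p under 0.05. Black lines are the members' medians and grey bars span the quartiles of all 15167 genes tested. The medians run from −0.33 for siELMO1 against siNT at 0 h to 0.30 for siNT against Mock at 0 h.

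ELMO1 knockdown was compared with both controls. Against siNT at 0 h the ribosomal protein genes were lower nearly as a whole: 65 of 79 (82.3%) were called lower and 3 higher, beside 31.3% of all genes in each direction. The median was −0.33, with quartiles of −0.45 and −0.18, against 0.00 for all genes tested. Against Mock at 0 h there was no such shift with TMM factors and all libraries. There, 12 members were called lower and 14 higher (15.2% and 17.7%), both below the 22.4% and 27.9% of all genes, and the median was −0.05. Scaled by library totals alone, it was 27 lower and 8 higher, with a median of −0.13. These comparisons share the siELMO1 libraries, and the siNT libraries are those already seen above Mock.

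Several counts turned on a single library. In siELMO1 against Mock at 0 h, without siELMO1 replicate 1, 34 members in place of 12 were called lower, and without replicate 3 it was 5. The share of all genes was not counted in these fits, so a shift of the members alone cannot be told from one in all calls. Against siNT the count of lower members stayed between 59 and 67 whichever library was left out. RPS19 shows the split, with 583, 385 and 353 CPM in siELMO1 against 579, 564 and 578 CPM in Mock at 0 h: replicate 1 lay with Mock and the others far below. Its log2 fold change of −0.38 was −0.64 without replicate 1, and it did not pass the test without siELMO1 replicate 2 or 3. RPL10, which completes the large subunit, was likewise at 961, 591 and 577 CPM in siELMO1 and 862, 865 and 873 CPM in Mock. The mitochondrial share of counts divided these libraries in the same way, and its part in the split was not tested.

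RPS16 did not show that split and was the abundant member that stood lowest in siELMO1. RPS16 contacts the tRNA in the peptidyl site. At 0 h the Mock libraries had 406, 382 and 399 CPM, the siNT libraries 513, 521 and 500.3 CPM and the siELMO1 libraries 231, 226 and 239.9 CPM. None of the groups overlapped, and siELMO1 lay below siNT by a log2 fold change of −1.14 ± 0.05 (0.454-fold, edgeR adjusted p = 2.3e-12) and below Mock by −0.77 ± 0.05. At 24 h these were 369.5, 405 and 381 CPM (Mock), 472, 476 and 423 CPM (siNT) and 255, 246 and 244 CPM (siELMO1), with log2 fold changes of −0.88 and −0.63. Its processed pseudogenes held at most 0.0333% of the counts of RPS16 and its pseudogenes together, and no other annotated gene overlapped it.

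RPS3A and RPS15 were lower than in both controls as well, but RPS3A showed the split, with siELMO1 replicate 1 at 0 h nearest to Mock. RPS15 also varied in siELMO1 at 0 h, with an SD of 193 around a mean of 967 TPM. RPS3A, beside the mRNA exit, had 762, 729.8 and 756 CPM in Mock at 0 h, while siNT stood at 938, 1017 and 964 CPM and siELMO1 at 663, 491 and 502 CPM. The log2 fold change was −0.82 ± 0.09 against siNT and −0.44 ± 0.09 against Mock, without overlap. RPS15, at the decoding centre, was lower by −0.64 and −0.30. For RPS3A 11.9% to 14.2% of the joint counts lay in its pseudogenes.

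RPL39L had the largest change of any member but a low level. At 0 h the Mock libraries each had 14.3 CPM, the siNT libraries 10.6, 12.0 and 10.1 CPM and the siELMO1 libraries 3.10, 3.24 and 2.89 CPM, with at least 129 counts in every library. The log2 fold change in siELMO1 was −1.82 ± 0.09 against siNT and −2.22 ± 0.09 against Mock (0.215-fold, edgeR adjusted p = 9.1e-13). Its parent gene RPL39 was at 344, 272 and 237 CPM in siELMO1 and 329, 309.7 and 320.4 CPM in Mock, groups that overlapped. RPL39 did not pass the test against Mock, at −0.17 ± 0.09, and was lower than siNT by −0.37 ± 0.09.

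RPL11, RPS26 and RPL28 were the 3 members higher in siELMO1 than in siNT at 0 h. RPL11 had 559.5, 616 and 603 CPM in siELMO1, above the 345 to 360.2 CPM of siNT and the 504 to 521 CPM of Mock. Its log2 fold change was 0.76 ± 0.05 against siNT (1.69-fold, edgeR adjusted p = 3.7e-10) and 0.20 ± 0.05 against Mock. RPL5 again did not follow it: it was lower than in siNT, at −0.30, and did not pass the test against Mock. RPS26 was higher by 0.31 and RPL28 by 0.26 against siNT. For RPS26, 9.85% to 16.9% of the joint counts lay in its pseudogenes, and RPL28 overlaps the gene UBE2S.

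Against Mock, RPL28 and RPS24 were among the members higher in siELMO1, at 0.41 ± 0.08 and 0.29 ± 0.06. RPL28 stood at 462, 580.0 and 585 CPM in siELMO1, above the 409, 406 and 405 CPM of Mock, with replicate 1 nearest to Mock. Among the stalk proteins, RPLP0, RPLP1 and RPLP2 were lower than in siNT by −0.33, −0.52 and −0.32, and none passed the test against Mock. RPL41, the smallest protein of the ribosome, was lower in both comparisons, by −0.48 and −0.22. RPS6, the substrate of S6 kinase, RPL3 near the peptidyl transferase centre and RPL13A did not pass the test against siNT, at −0.14, −0.11 and −0.09.

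**Figure D3:**
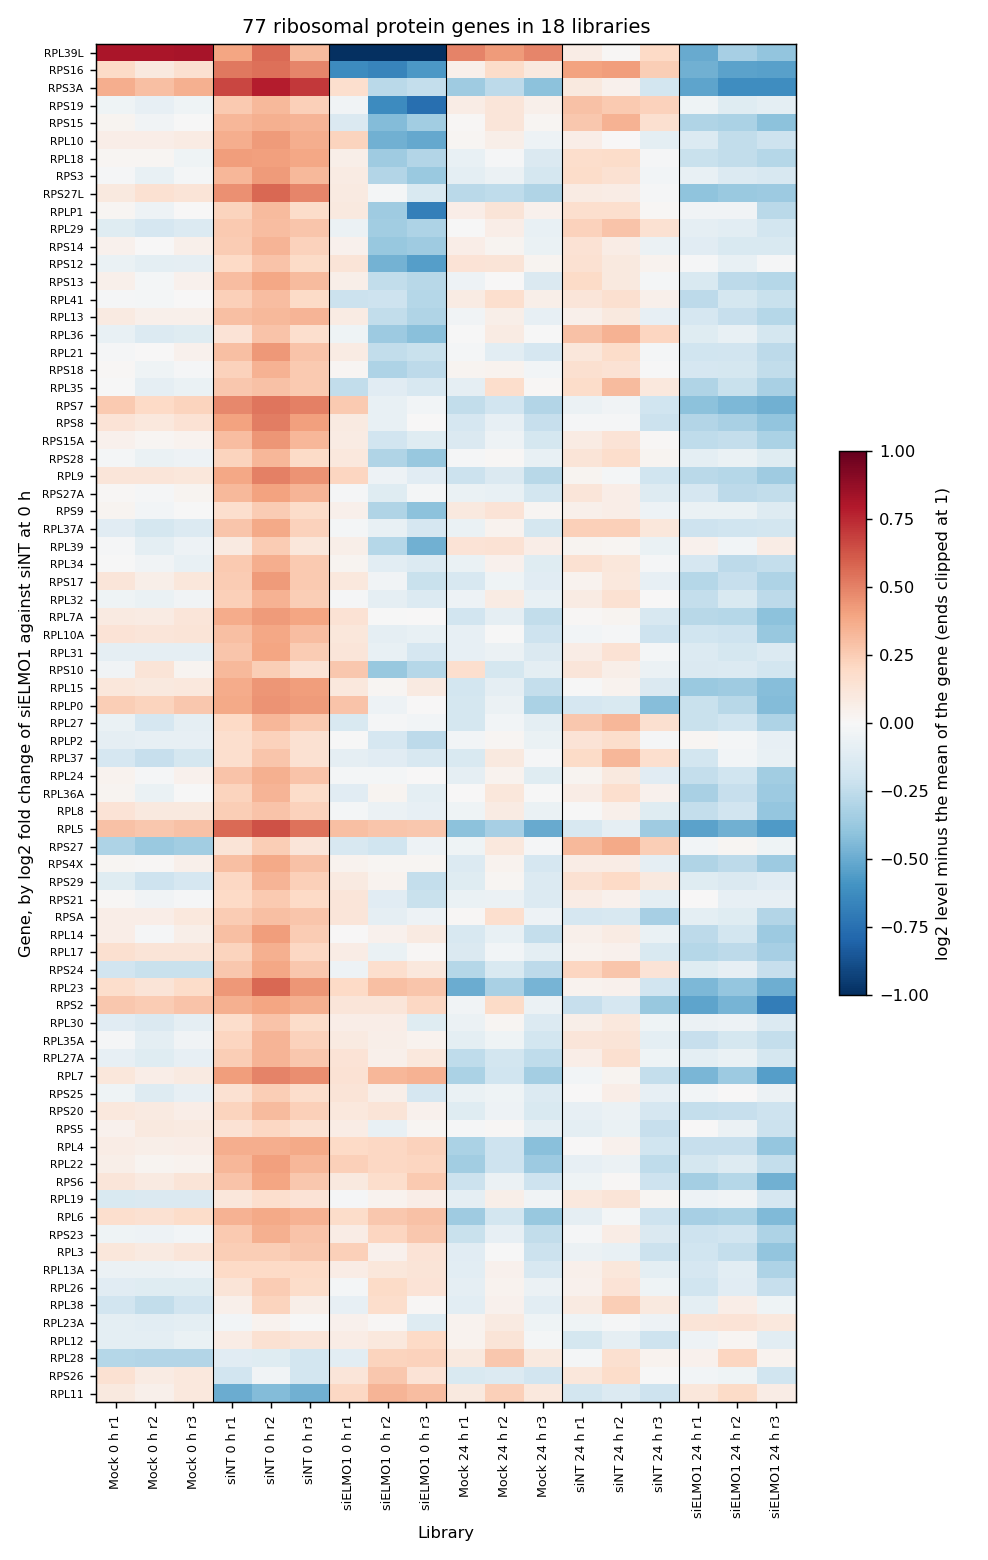
Log2 level of 77 of the 79 tested members (rows, ordered by the log2 fold change of siELMO1 against siNT at 0 h) in the 18 libraries (columns), minus the gene's mean over all libraries, with the colour scale clipped at 1 in both directions. Most rows are highest in siNT at 0 h; RPL11 at the bottom is lowest there, and RPL39L and RPS16 at the top are lowest in siELMO1.

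At 24 h of poly(I:C) the siELMO1 libraries stood lowest. Against siNT 56 members (70.9%) were called lower and 2 higher, beside 26.5% and 26.0% of all genes, with a median of −0.26. Against Mock 24 (30.4%) were called lower and none higher, beside 22.0% and 21.6%, with a median of −0.13. For the members higher than in Mock at 24 h, edgeR gave 2 at an unadjusted p under 0.05 and none after adjustment, and DESeq2 called 2. The count against Mock was 13 without Mock replicate 2 at 24 h and 40 without siELMO1 replicate 1 at 0 h, a library that enters here through the shared estimate of the spread. RPS16, RPS15 and RPS3A led the fall against siNT, at −0.88, −0.60 and −0.58.

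RPL11 and RPL23A, a protein at the exit of the peptide tunnel, were the members higher than in siNT at 24 h, by 0.30 ± 0.05 and 0.16 ± 0.05. RPL11 had 526, 554 and 511 CPM in siELMO1 and 427, 442 and 420.3 CPM in siNT, and its level in Mock, 521, 573 and 522 CPM, overlapped with siELMO1. RPL23A had 19% to 26.2% of its joint counts in pseudogenes. Against Mock, the largest falls were those of RPL39L at −0.88 ± 0.08, RPS16 at −0.63 ± 0.05 and RPS2 at −0.59 ± 0.07. RPS4X, RPS6, RPSA and RPL3 were lower than in Mock by −0.22, −0.20, −0.21 and −0.17. The libraries of RPL3 overlapped, and RPS6, RPSA and RPL3 did not pass the test without Mock replicate 2 at 24 h (−0.15, −0.15 and −0.11) or without siELMO1 replicate 3 at 24 h (−0.15, −0.15 and −0.11).

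A set of members was lower after 24 h of poly(I:C) than at 0 h in each of the 3 kinds of cells. No library was taken at 24 h without poly(I:C). The stimulus and the added time in culture therefore cannot be told apart, and the response to poly(I:C) means the change from 0 h to 24 h. In Mock 26 members (32.9%) were called lower at 24 h than at 0 h and 9 higher, beside 29.6% and 30.7% of all genes, so the lower share was close to that of all genes. Scaled by library totals alone, which moves every gene by −0.12 on the log2 scale in this comparison, it was 40 lower and 2 higher, with a median of −0.18. In siNT 53 (67.1%) were lower and 4 higher, beside 25.2% and 28.6%. In siELMO1 42 (53.2%) were lower and 5 higher, beside 26.9% and 28.0%. The medians were −0.06, −0.22 and −0.16. The 3 comparisons use separate libraries.

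RPL5 had the largest fall from 0 h to 24 h in all 3 kinds of cells. RPL5 had 745, 731 and 742 CPM in Mock at 0 h and 456, 481.5 and 429 CPM at 24 h, a log2 fold change of −0.70 ± 0.06 (0.616-fold, edgeR adjusted p = 9.5e-09). In siNT it went from 897, 946 and 885 CPM to 543.5, 569.9 and 475 CPM, and in siELMO1 from 747, 734 and 730.5 CPM to 419, 435 and 409.8 CPM. The log2 fold changes there were −0.78 and −0.81, and no library at 24 h reached any at 0 h. Its partner RPL11 stood at 0.06, 0.29 and −0.16 in Mock, siNT and siELMO1, the last of which did not pass the test without siELMO1 replicate 2 at 0 h (−0.13).

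RPS3A and RPL23 fell in all 3 as well, RPS3A by −0.68, −0.73 and −0.49 and RPL23, which like RPL5 and RPL11 can bind MDM2, by −0.59, −0.52 and −0.70. RPLP0 fell by −0.42, −0.66 and −0.40, whereas RPLP1 and RPLP2 did not pass the test in any. RPL7 fell by −0.37, −0.53 and −0.73, RPL22 by −0.34, −0.49 and −0.40, and RPS6 by −0.27, −0.39 and −0.54. RPS2, at the mRNA entry channel, had 2120, 2102 and 2148 CPM in Mock at 0 h and 1714, 2009 and 1693 CPM at 24 h. In siELMO1 it went from 1912, 1915 and 2038 CPM to 1221, 1273 and 1092 CPM, a log2 fold change of −0.71 ± 0.07 against −0.23 ± 0.07 in Mock.

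A few members rose with poly(I:C). In Mock RPL28 and RPS27 rose by 0.45 ± 0.08 and 0.36 ± 0.05. In siNT it was RPL11 by 0.29 ± 0.05, RPS26 by 0.23 ± 0.06 and RPL28 by 0.20 ± 0.08, the last with an adjusted p of 0.039 in edgeR and lost when any of several libraries was left out. In siELMO1 RPL39L rose from 3.10, 3.24 and 2.89 CPM to 5.71, 6.44 and 6.15 CPM, a log2 fold change of 0.99 ± 0.09 (1.98-fold, edgeR adjusted p = 3.6e-08). RPL23A, RPS19 and RPL39 were called higher there, by 0.15, 0.35 and 0.25, but with libraries of RPS19 and RPL39 that overlapped between the times. Without siELMO1 replicate 1 at 0 h RPS19 and RPL39 stood at 0.61 and 0.41. Without replicate 3 at 0 h they stood at 0.21 and 0.14 and RPL23A at 0.09, and none of the 3 passed the test.

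**Figure D4:**
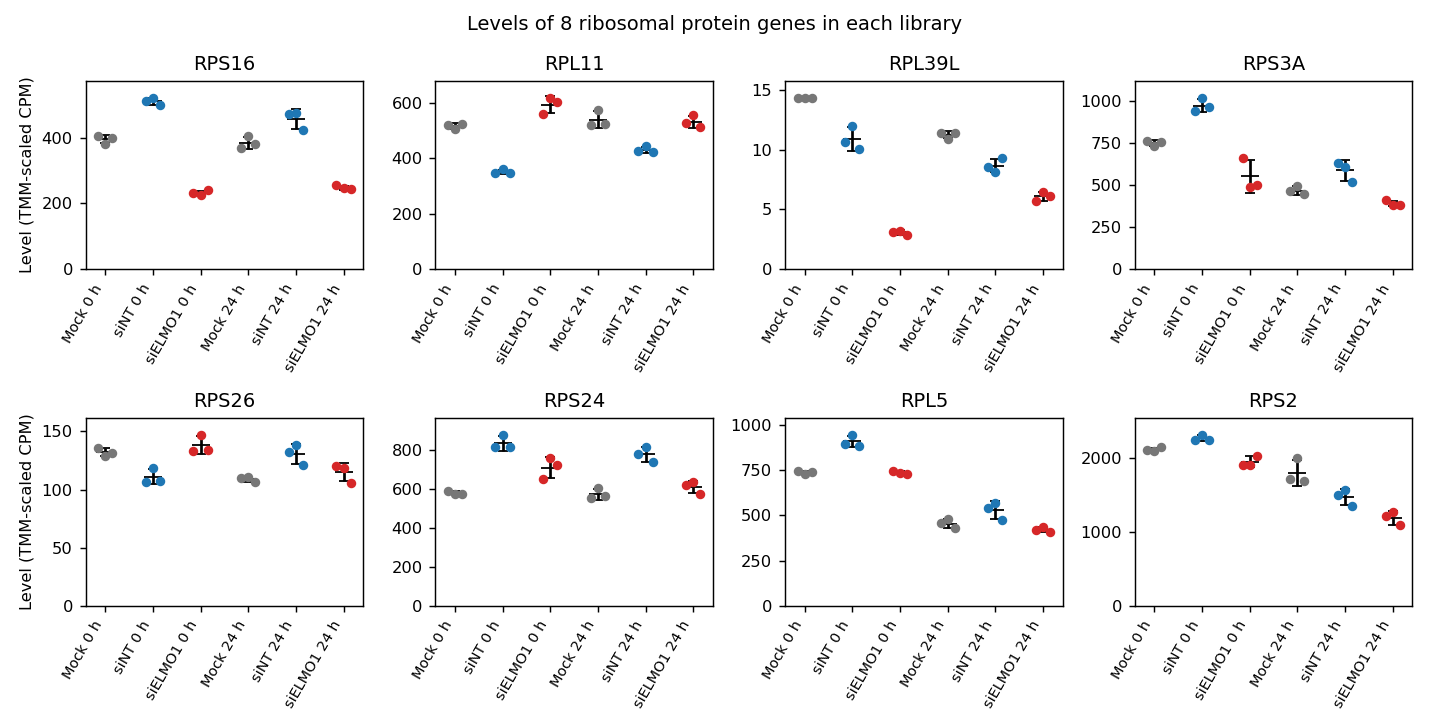
Level of 8 members in TMM-scaled CPM (vertical axes, from 0) by condition (horizontal axes). Points are libraries and bars are the mean and SD of 3. RPS16 is lowest in siELMO1 at both times, RPL11 is lowest in siNT, RPL39L is lowest in siELMO1 at 0 h, and RPL5 is lower at 24 h in all 3 kinds of cells.

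Whether the response to poly(I:C) differed between the cells was tested as an interaction. With all 18 libraries few members passed: 8 for siELMO1 against siNT, 14 for siNT against Mock and 15 for siELMO1 against Mock. These were 10.1%, 17.7% and 19%, all below the 34.5%, 31.0% and 28.3% of all genes. These counts moved most with 1 library, and without siELMO1 replicate 1 at 0 h they were 41, 32 and 29 of 79. The share of all genes without that library was not counted. Whether the members then lay below it is therefore not known, and the low counts rest on replicate 1. The interaction of siNT and Mock holds no siELMO1 library, so replicate 1 enters it only through the fit shared by all libraries. RPL39L had the largest difference, since it fell from 0 h to 24 h in Mock and siNT (−0.35 and −0.33) and rose in siELMO1. RPL11 rose in siNT and fell in siELMO1, a difference of −0.45 ± 0.07 (edgeR adjusted p = 6.4e-05). RPS26 rose in siNT and fell in Mock and siELMO1, with differences of 0.51 ± 0.09 for siNT against Mock and −0.50 ± 0.09 for siELMO1 against siNT. RPL12, at the base of the stalk, rose in Mock by 0.14 and fell in siNT by −0.28, a difference of −0.41 ± 0.07. RPSA fell in siNT by −0.49, with a difference of −0.46 from Mock, where it did not pass the test, and siELMO1 differed from siNT by 0.33. RPS2 fell more in both transfected kinds of cells than in Mock, by −0.39 in siNT and −0.48 in siELMO1.

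The transcript table showed how the members' counts divided among their transcripts. Transcripts annotated as retaining an intron held 13.7% to 16.8% of the members' counts per library, and transcripts annotated for nonsense-mediated decay 4.01% to 6.04%. Groups overlapped in both at 24 h. At 0 h the decay share was 5.23% to 6.04% in Mock, above the 4.77% to 5.16% of siNT and the 4.64% to 5.20% of siELMO1. RPS24 was examined for one alternative exon, chosen after its transcript values were seen. Its mRNA can include an exon of 22 bases at chr10:78040204-78040225 (GRCh38, plus strand), shown here in capitals with 4 transcript bases on each side because the shares given next are of transcripts with and without it.
RPS24 exon: aaagTGAGCTGGAGATTGGATCACAGccga
In the annotated transcript RPS24-202 the first 3 bases of this exon are the stop codon and the rest is 3′ UTR. Transcripts that skip the exon, such as RPS24-214, read on for a few codons into the next exon. Among the counts of 5 transcripts with the exon and 3 without it, the share with the exon was 37.7%, 54.1% and 38.3% in Mock, 47.5%, 59.7% and 56.9% in siNT and 57.4%, 71.9% and 69.7% in siELMO1 at 0 h. At 24 h it was 33.5%, 40.9% and 50.6% in Mock, 59.0%, 79.2% and 60.8% in siNT and 66.9%, 81.3% and 68.7% in siELMO1. Every siELMO1 library lay above every Mock library of its time, and at 24 h every siNT library did too.

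The mean share was higher in siELMO1 than in Mock by 23.0 percentage points at 0 h and 30.6 points at 24 h, and higher in siNT than in Mock by 24.7 points at 24 h. The exact two-sided permutation p was 0.1 in each of these, the smallest that 3 libraries against 3 allow, and 0.3 after adjustment over 9 comparisons. siELMO1 and siNT overlapped at both times, with differences of 11.6 and 5.95 points. The shares are StringTie's division of reads among overlapping transcripts and were based on 22661 to 47081 counts per library. Replicates of a group differed by up to 20.2 points. Replicate 2 had the highest share in every group except Mock at 24 h, and the test did not pair libraries by number.

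**Figure D5:**
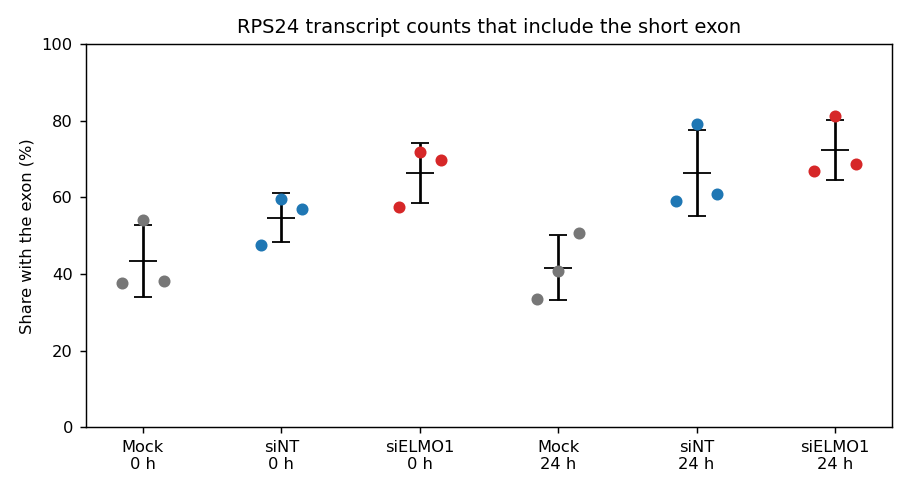
Share of RPS24 transcript counts (%, vertical axis) in transcripts that include the 22-base exon, by condition (horizontal axis), with points for libraries and bars for the mean and SD of 3. Mock libraries sit between 33.5% and 54.1% and siELMO1 libraries between 57.4% and 81.3%.

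Of 7 relatives that the symbol rule leaves out, 4 were called lower and 1 higher in siELMO1 against siNT at 0 h, where 31.3% of all genes were called in each direction. A pair of them, chosen after their values were seen, moved apart from their parent genes. RPL26L1, a paralog of RPL26, had group means at 0 h of 16.1 CPM (Mock), 6.71 CPM (siNT) and 18.3 CPM (siELMO1). The log2 fold change was −1.26 ± 0.08 in siNT against Mock and 1.44 ± 0.08 in siELMO1 against siNT, where RPL26 stood at 0.31 and −0.08. RPL22L1, a paralog of RPL22, was lower than in Mock in both transfected kinds of cells at 0 h, by −0.66 ± 0.10 in siNT and −0.70 ± 0.10 in siELMO1, where RPL22 was higher by 0.32 and 0.18, the latter not past the test without Mock replicate 2 or 3 at 0 h (0.14 and 0.15). RPS27L moved with RPS27 in siNT against Mock (0.39 and 0.51 at 0 h) and in the opposite direction from it with poly(I:C) in Mock (−0.40 and 0.36).

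Other genes of the pathway are given by their counts, to be read against the 31.3% of all genes called in each direction in siELMO1 against siNT at 0 h. Of 77 mitochondrial ribosomal protein genes, which serve a separate ribosome, 41 were called lower and 8 higher in siELMO1 against siNT at 0 h (median −0.21), and 31 higher and 11 lower in siNT against Mock (median 0.15), beside 27.6% and 24.0% of all genes. Of 42 ribosome assembly genes, 22 were lower and 8 higher in siELMO1 against siNT (median −0.18). Of 15 translation factors and partners whose mRNAs also begin with a TOP tract, 4 were lower and 3 higher there, shares near or below those of all genes. With poly(I:C) 10, 12 and 13 of those 15 were lower in Mock, siNT and siELMO1, where 29.6%, 25.2% and 26.9% of all genes were, with medians of −0.25, −0.35 and −0.41. Among them EIF4B, which helps unwind mRNA and was chosen after its values were seen, fell by −1.48, −0.74 and −1.40. Of 13 genes that control TOP mRNAs or their transcription, 5 were lower and 3 higher in siELMO1 against siNT at 0 h, near the shares of all genes.

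In some comparisons the median change of other genes differed with transcript length. Among other protein-coding genes tested, the 357 whose canonical transcript had at most 800 bases had a median of −0.14 in siELMO1 against siNT at 0 h and 0.11 in siNT against Mock, and the 2346 with over 6000 bases had 0.06 and 0.05. Of the tested members 40 were in the shorter class. At 24 h the short genes stood at −0.12 in siELMO1 against siNT. The members' medians were −0.33 (siELMO1 against siNT, 0 h), 0.30 (siNT against Mock, 0 h) and −0.26 (siELMO1 against siNT, 24 h). From 0 h to 24 h the short genes stood at −0.06 in Mock, −0.03 in siNT and 0.01 in siELMO1. The members' medians there were −0.06, −0.22 and −0.16. The part of length in any of these shifts was not tested.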

How the data were processed

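Stranded mRNA libraries were sequenced as paired ends. The authors aligned the reads with STAR to GRCh38 and, per the submitters' processing notes, ran StringTie. They derived the deposited estimated counts, which are whole numbers, per gene and per transcript of GENCODE v44 with StringTie's prepDE script. The read length passed to it and the strand setting are not given in the sources used here. StringTie divides reads among overlapping genes and transcripts. Members with many processed pseudogenes (RPL23A, RPL36A, RPL39, RPL21, RPL41, RPS26, RPS3A, RPS2, RPL22) are therefore less certain. So are members with overlapping genes, of which RPL28, RPL5, RPS3A and RPS26 are examples. Of the 81 members, 34 had an annotated gene on the other strand.

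All 18 libraries were fitted together in edgeR 4.0.16 (R 4.3.3) with TMM factors and the quasi-likelihood test. Genes needed 100 counts in total and 1 CPM in at least one library. Benjamini-Hochberg adjustment ran over all 15167 genes tested in each of 12 comparisons (9 pairwise, 3 interactions), with calls at an adjusted p under 0.05. CPM values are scaled by TMM. TPM was computed over all transcripts of a gene, in place of the planned length of its main transcript. Shares in transcript groups were tested by an exact permutation test. Alternatives were limma-voom 3.58.1, DESeq2 1.42.0, library totals, TMM factors from other genes, no filter, only the groups compared, pseudogene counts added to their parent, the replicate number as a block, and leaving out each library. The scripts were tested on simulated data.

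Named genes were a fixed set of members by role, the 3 largest changes each way per pairwise comparison among called members whose groups did not overlap, and the 2 smallest adjusted p per interaction; values of 2 members are not reported here by name, though both are in the counts. The members and gene lists were chosen with earlier results of these data known. Of 45 pairs of same-numbered libraries, 13 had deviations that correlated above 0.1 (median r 0.0275, from −0.238 to 0.462, over 9640 genes). All 3 pairs passed for Mock and siNT at 24 h (r 0.312, 0.355 and 0.228) and for siELMO1 at 0 h and siNT at 24 h (r 0.246, 0.209 and 0.127), which were not compared directly; the pairing comes from the data and not from a stated batch. With 40374756 to 73850946 counts per library, every tested member had at least 129 counts, the lowest being RPL39L, for which counting error weighs most.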

Additional observations from a re-analysis of the deposited data

Results flagged for a closer look

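The 2 members with the smallest adjusted p in each interaction test in edgeR are given here, 5 members in all. More members passed: 8 for siELMO1 against siNT, 14 for siNT against Mock and 15 for siELMO1 against Mock. These were 10.1%, 17.7% and 19% of the members, beside 34.5%, 31.0% and 28.3% of all genes. RPL39L responded by 1.32 ± 0.12 more on the log2 scale in siELMO1 than in siNT (adjusted p = 1.7e-07) and by 1.34 ± 0.12 more than in Mock (adjusted p = 2.7e-07); all 3 siELMO1 libraries at 24 h lay above the 3 at 0 h, and in Mock and siNT all lay below. RPL11 differed by −0.45 ± 0.07 between siELMO1 and siNT (adjusted p = 6.4e-05), since it rose in siNT and fell in siELMO1 without overlap. RPS26 differed by 0.51 ± 0.09 between siNT and Mock (adjusted p = 0.00019) and RPL12 by −0.41 ± 0.07 (adjusted p = 2e-04), with opposite directions in the 2 kinds of cells and no overlap in either. RPS2 fell in both siELMO1 and Mock, and by −0.48 ± 0.10 more in siELMO1 (adjusted p = 0.0012).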

How the results depend on the processing

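Counts of members called stayed within 1.5 times the values of the report in all 21 cases under limma-voom, TMM factors from other genes and pseudogene counts added to the parent. Shares of all genes were not counted under the alternatives or with a library left out. Library totals gave 2 higher with poly(I:C) in Mock, siNT and siELMO1 each (9, 4 and 5 in the report), 40 lower in Mock, 8 higher and 27 lower in siELMO1 against Mock at 0 h, 1 higher in siELMO1 against siNT at 24 h (2 in the report) and 5 for the interaction of siNT and Mock. The members' median moved there to −0.13 in siELMO1 against Mock at 0 h, −0.18 with poly(I:C) in Mock and −0.08 for that interaction (−0.05, −0.06 and −0.17 with TMM factors). RPL41 reversed there, at −0.0088 with poly(I:C) in Mock, where it was 0.11. Without a filter, with more genes tested, the interactions of Mock with siELMO1 and siNT gave 7 and 6, poly(I:C) gave 4 higher in Mock and 2 in siNT, siELMO1 against Mock gave 9 higher at 0 h and 14 lower at 24 h, and siNT against Mock 20 higher at 24 h. With only the groups compared, the interactions of siNT with siELMO1 and Mock gave 5 and 22, and poly(I:C) gave 15 higher in Mock and 2 in siELMO1. DESeq2 gave 16 for the interaction of siELMO1 and siNT, 2 higher in siELMO1 against Mock at 24 h and 19 lower at 0 h. The replicate block gave 17 and 22 for the interactions of siNT with siELMO1 and Mock, 1 higher in siELMO1 against Mock at 24 h and 19 lower at 0 h, and moved no other count by over 1.5 times; 8 of 18 libraries correlated best with their own number. The cause of these moves was not tested, apart from the number of genes or libraries.

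Leaving out each library in turn gave 10 to 29, 5 to 41 and 6 to 32 for the interactions of siELMO1 with Mock, siELMO1 with siNT and siNT with Mock. With poly(I:C) 4 to 15 were higher in Mock, 3 to 15 in siELMO1 and 2 to 4 in siNT. Against Mock, siELMO1 gave 10 to 16 higher and 5 to 34 lower at 0 h, and 0 to 2 higher and 13 to 40 lower at 24 h, and siNT gave 16 to 42 higher at 24 h. The lower counts against siNT stayed at 59 to 67 at 0 h and 48 to 66 at 24 h, the higher count of siNT against Mock at 0 h at 52 to 73, and the lower counts with poly(I:C) at 22 to 30 in Mock, 39 to 58 in siNT and 36 to 43 in siELMO1. Upper ends of 15, 29, 32, 34, 40 and 41 came without siELMO1 replicate 1 at 0 h. The difference in RPS24 exon share between 24 h and 0 h in Mock, −1.74 points, ran from −6.21 to 3.63 points and reversed without Mock replicate 2 at 0 h (3.63) or Mock replicate 1 at 24 h (2.34).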
